A study of Mus musculus with 6 samples.

Results

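The unannotated lncRNA loci of mouse microglia described here are all lines of the class Novel_lncRNA_gene in the deposited table, out of 38207 genes and loci in all. Of these loci, 226 had at least 1 count and 3 had none. They were taken by that class label alone. They carry a running number such as ONT.12600 and no gene symbol. The 6 libraries are nanopore cDNA of microglia from the brains of wild-type (WT) mice. Of these, 3 come from sham-operated mice and 3 from mice with tMCAO, which usually stands for transient occlusion of the middle cerebral artery, used to model ischemic stroke. Each library pooled 30 mice, so the spread between libraries is a spread between pools and not between animals. The sources used here give no age, no time after surgery and no method of cell isolation, and one protocol speaks of tissue. The comparison asks which of these loci differed in level between microglia of sham-operated and of tMCAO brains.

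Long noncoding RNAs are transcripts longer than the small RNA classes that are not thought to encode a protein. Many are spliced and polyadenylated like messenger RNAs, but they are often lower in level, more restricted to certain cell types and less conserved in sequence. Some act on chromatin or transcription at the place where they are made, others in the cytoplasm, and for most no function is known. A locus assembled from long reads and scored as noncoding can be a true lncRNA, an extension or antisense transcript of a nearby gene, or a transcribed repeat, and its class name alone does not separate these.

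Total counts were 2371235 to 2614512 in the sham libraries and 1855495 to 2030550 in the tMCAO libraries, so 1 count is worth 0.383 to 0.539 CPM, the count scaled by the library total. Summed CPM of 8 microglial markers, such as P2ry12 and Cx3cr1, was 23091 to 24155 in sham and 21704 to 24305 in tMCAO, and 2 of the 8 were called lower. Markers of other cells were present as well. The summed choroid plexus list was 8627 to 44619 CPM in sham against 2271 to 9960 in tMCAO, the astrocyte list 137 to 409 against 63.5 to 91.1, and the erythroid list 955 to 6040 against 215 to 380. Oligodendrocyte markers summed to 186 to 1029 against 140 to 339 CPM, neutrophil markers to 1682 to 2170 against 368 to 1671, and monocyte markers to 69.2 to 82.1 against 64.4 to 169. Called lower were 1 of 6 choroid plexus, 2 of 7 astrocyte, 1 of 6 oligodendrocyte and 1 of 5 neutrophil markers, and called higher were 2 of 4 monocyte markers. Only 4 of the astrocyte markers and 3 of the 5 erythroid markers were tested, the latter without a call, and none of the 5 neuron markers was tested. The 5 endothelial markers were tested and not called. Neuron markers stayed under 10 CPM in sum in every library (3.73 to 9.56), endothelial markers summed to 159 to 221 against 103 to 241, and no marker of any list was at 0 in all libraries of a group. Levels are from bulk RNA, in which fewer cells of a type and less RNA per cell cannot be told apart.

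Most of the unannotated lncRNA loci were read in every pool. A count in all 6 libraries was found for 198 (86.5%). The number detected was 218, 218 and 221 in the sham pools, in the order of their replicate numbers, and 216, 216 and 221 in the tMCAO pools. Thinned to the depth of the shallowest library, these numbers became 214.7 to 220.8 in tMCAO and 216.3 to 218.6 in sham, so the groups overlapped. Mean level was 1 to 10 CPM for 122 loci, 10 to 100 CPM for 82 and above 100 CPM for 11 and for ONT.12600, and the median was 7.09 CPM. CPM is not divided by transcript length, which was not used here, so these values rank loci by reads and not by molecules.

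A single locus took most of the reads. ONT.12600 held 56.4% of the 180828 counts of the class, and ranked 9 by mean CPM among all genes and loci of the table. It stood at 7791, 6499 and 8498 CPM in sham 1, 2 and 3 and at 7392, 7223 and 8769 CPM in tMCAO 1, 2 and 3. The groups overlapped and the log2 fold change (tMCAO against sham, here and throughout) was -0.07 ± 0.14 (SE, adjusted p = 0.763). The 8 most abundant loci together held 75.3% of the counts.

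Summed over the class, the level was 16218, 12268 and 15279 CPM in sham and 12074, 12167 and 12985 CPM in tMCAO, with overlap. Without ONT.12600 the sums were 8427, 5768 and 6782 CPM in sham and 4681, 4943 and 4216 CPM in tMCAO, a mean of 6992 ± 1342 against 4614 ± 368 (SD, n = 3 each) with no overlap. The locus ONT.13548 made most of that difference. Without both loci the sums were 5594, 4355 and 5534 CPM against 4522, 4729 and 4111 CPM, and the groups overlapped again.

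**Figure D1:**
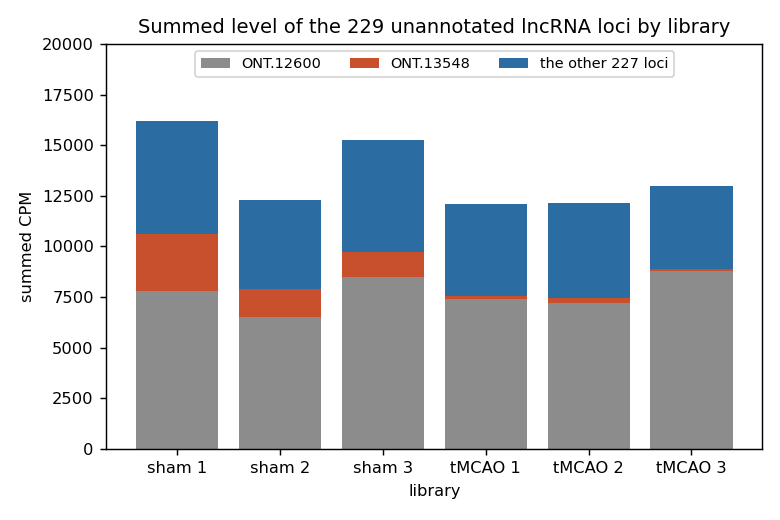
Summed level of all unannotated lncRNA loci (y axis, CPM) in each library (x axis), split into ONT.12600, ONT.13548 and all other loci of the class. The ONT.12600 part is 6499 to 8769 CPM in all 6 libraries, while the ONT.13548 part shrinks from 1248 or more in sham to 214 or less in tMCAO.

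More loci of the class were lower after tMCAO than higher. With edgeR's quasi-likelihood test, fitted to the whole table and adjusted over 13127 tested genes and loci, 145 of the loci were tested, 84 were too low to test, and 38 of the 145 (26.2%) had an adjusted p under 0.05. Of all genes and loci tested, 18.1% were called. Of the 145 loci, 30 (20.7%) were lower and 8 (5.52%) higher, against 8.96% lower and 9.17% higher among all tested. The median log2 fold change of the 145 was -0.45 (quartiles -0.90 and 0.20), against 0.00 over all 13127, and 99 of the 145 were below 0. In 40 of the 145 every tMCAO library lay below every sham library, and in 16 every one lay above, where 14.6% and 23.3% of all tested features did so. Without sham 1 the lower calls went from 30 to 17, of 143 loci then tested, while the higher calls were 7. Calls over all features dropped as well, from 2380 to 1254. That was 9.31% of the 13471 features then tested, against 16.8% of the loci.

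**Figure D2:**
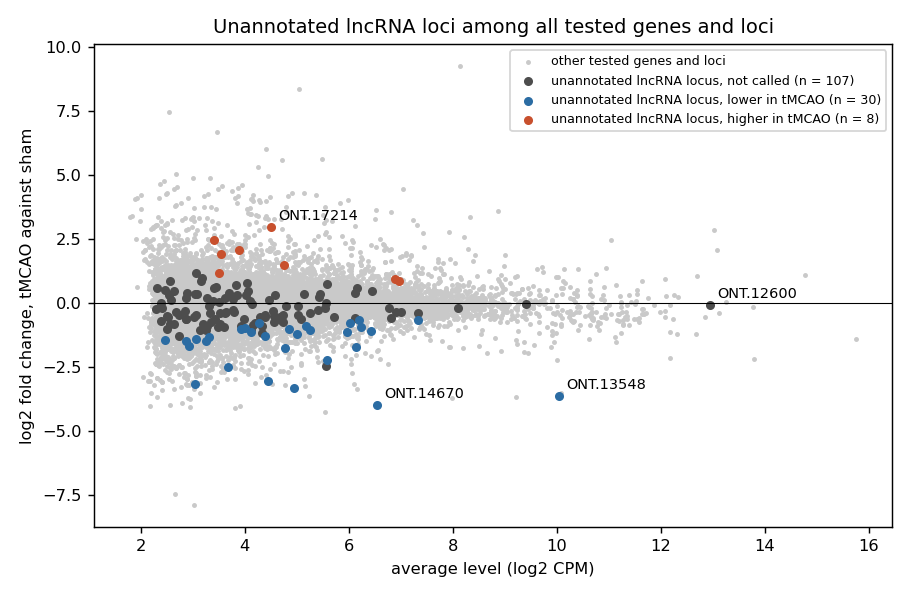
Log2 fold change of tMCAO against sham (y axis) by average level in log2 CPM (x axis) for all 13127 tested genes and loci in grey, with the 145 tested unannotated lncRNA loci on top: 107 not called, 30 lower and 8 higher. ONT.13548 and ONT.14670 lie at the bottom with log2 fold changes of -3.65 and -3.99, and ONT.12600 lies near 0 at the right.

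Lower calls outnumbered higher ones among both the more and the less read loci. Among the 73 tested loci with the higher mean CPM, 20 (27.4%) were lower and 4 (5.48%) higher, against 9.36% lower and 12.1% higher of all features at such levels, and the median log2 fold change was -0.53. Among the other 72, 10 (13.9%) were lower and 4 (5.56%) higher, against 8.57% and 6.33% of all features at such levels, with a median of -0.36. The difference between these 2 sets was not tested. In the less read set, the lower calls ONT.24624, ONT.7183, ONT.26043 and ONT.20060 passed the low-count filter through sham alone. The higher call ONT.11370 passed it through tMCAO alone. These calls give no support to the counts of that set, as described below. All 8 higher calls and 29 of the 30 lower calls had groups that did not overlap, the exception being ONT.3460 (log2 fold change -0.66, adjusted p = 0.0496). Just outside the threshold lay ONT.13739, with a log2 fold change of -1.28 and an adjusted p of 0.05001.

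The low-count filter keeps a locus that reaches 4.54 CPM in 3 libraries, so a locus high in 1 group only can pass through that group. Among the 145 tested loci, 95 were above that level in all 6 libraries. Another 6 had all sham libraries above it and no tMCAO library, and 4 of these were called lower: ONT.24624, ONT.7183, ONT.26043 and ONT.20060. ONT.11370, called higher, was the 1 locus above it in tMCAO alone. Such loci had to differ to be tested, so their calls give no support to a count or group. Other called loci had some but not all libraries of the lower group above that level, and so also needed the higher group to pass. Among them were the rises ONT.17214, ONT.14159 and ONT.16356, and the falls ONT.24623, ONT.24625, ONT.24627 and ONT.23261. Their calls share part of this limit. Of the 95, 20 were lower and 4 higher. The share called among all features above that level in all 6 libraries was not computed, so these counts have no matching background. Among the 84 loci that were not tested, 81 had a count, none had more than 73 counts in all, and 52 had the lower mean CPM in tMCAO. Their levels summed to 199, 182 and 197 CPM in sham and 161, 168 and 175 CPM in tMCAO. Over all 226 loci with a count, tested or not, 145 (64.2%) had a lower mean CPM in tMCAO, against 53.7% of the 31736 features of the table with a count.

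The other classes of the table leaned in different directions. Of 8528 tested known genes, 11.4% were higher and 5.72% lower, with a median log2 fold change of 0.09. Of 4341 tested loci outside the annotation that are not classed as lncRNA, 4.95% were higher and 14.8% lower (median -0.26). Of 113 tested known lncRNA genes, 7 (6.19%) were higher and 14 (12.4%) lower (median -0.11). The unannotated lncRNA loci thus lay on the same side of 0 as the other loci outside the annotation and as the known lncRNA genes. No test between classes was run.

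**Figure D3:**
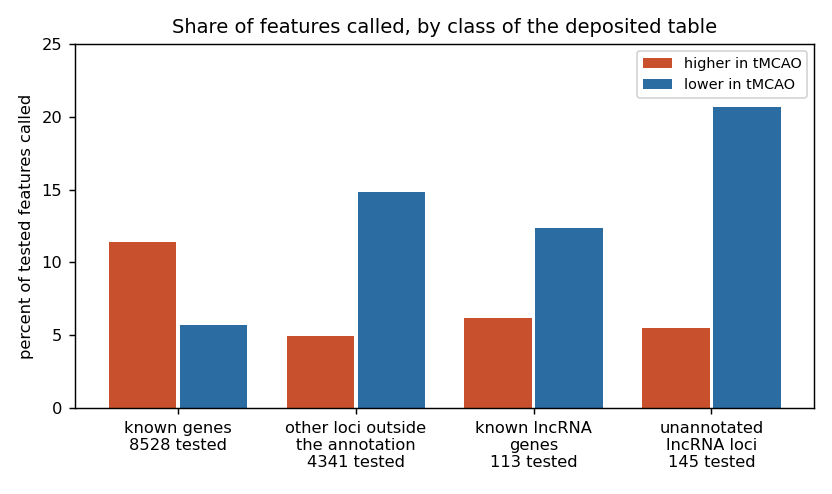
Percent of tested features called higher or lower in tMCAO (y axis) for each class of the deposited table (x axis, number tested below each name). The lower share exceeds the higher share in 3 of the 4 classes and is 20.7% against 5.52% in the unannotated lncRNA loci.

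The largest falls were in 6 loci. ONT.13548, the second of the class by reads, stood at 2833, 1413 and 1248 CPM in sham and at 159, 214 and 105 CPM in tMCAO, values being given in the order of the replicate numbers. No tMCAO library came near the lowest sham library, and the log2 fold change was -3.65 ± 0.43 (adjusted p = 0.00366). Its call held in all 16 other settings tried, with log2 fold changes of -3.88 to -3.02.

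ONT.14670 had the lowest log2 fold change of the class, -3.99 ± 0.71 (adjusted p = 0.0209), with 256, 144 and 85.3 CPM in sham and 5.42, 21.6 and 6.39 CPM in tMCAO. Its groups were far apart, but its sham libraries spread over 85.3 to 256 CPM. The adjusted p was 0.0648 without sham 2, 0.0629 without tMCAO 1, 0.0781 without tMCAO 3 and 0.0553 with no low-count filter, in a range of 3.33e-06 to 0.0781 over all settings.

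The remaining 4 carry nearly consecutive numbers, ONT.24623, ONT.24624, ONT.24625 and ONT.24627, and may therefore share reads or a source. ONT.24627 stood at 73.8, 36.9 and 40.9 CPM in sham and at 3.94, 7.55 and 4.79 CPM in tMCAO (log2 fold change -3.33 ± 0.34, adjusted p = 6.83e-05). ONT.24625 went with it, at 55.2, 23.0 and 25.2 CPM against 2.95, 8.08 and 2.66 CPM (-3.03 ± 0.48, adjusted p = 0.00283). In both loci sham 1 was the highest library and tMCAO 2 the highest of its group. ONT.24623 stood at 29.1, 11.5 and 15.3 CPM against 2.95, 5.39 and 2.13 CPM (-2.51 ± 0.44, adjusted p = 0.00208). ONT.24624 stood at 18.98, 9.12 and 7.65 CPM against 0.492, 2.16 and 1.60 CPM (-3.15 ± 0.55, adjusted p = 0.00208), and was tested only because sham is above the filter level. All 4 showed the same order in tMCAO in that tMCAO 2 was highest, and all 4 calls held in the 16 other settings.

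Loci with neighbouring numbers did not all show such differences. ONT.24622, ONT.24628 and ONT.24618 had log2 fold changes of -0.27 (adjusted p = 0.664), -0.75 (adjusted p = 0.108) and -0.39 (adjusted p = 0.463), and ONT.24626 had no count. Near ONT.14670, ONT.14674 was called higher (1.01, adjusted p = 0.0444) and ONT.14672 was not called (0.38, adjusted p = 0.404). The untested ONT.14666 had 6, 4 and 1 counts in sham and none in tMCAO, and ONT.14668 had 6, 2 and 1 counts in sham and none in tMCAO. ONT.13547, the known lncRNA gene 2810002D19Rik next to ONT.13548 in the numbering, had -0.78 (adjusted p = 0.0532).

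A family of annotated gene models showed falls of like size, and was looked at after the values were seen. Over the 6 libraries, Gm10717 was the tested known gene with the pattern most like that of ONT.24627 (Pearson r = 0.999 of log2(CPM + 0.5), n = 6, a description in which the gap between the 2 groups counts for much). Loci of the other classes were not ranked. Such a likeness is not rare: 175 tested features of all classes (1.33%) had r of at least 0.95 with ONT.24627. The next known gene was Trappc8, at 0.995, a gene of the TRAPP trafficking complex. For ONT.13548 the best match among known genes was Olfr46 (r = 0.995), and Gm10717 ranked 4 among them (r = 0.993). Gm10717 and its relatives are predicted protein-coding models that lie in copies of the mouse major satellite, the tandem repeat of pericentromeric heterochromatin. In GENCODE M21, 12 genes of the table, Gm10717 included, have transcripts with a stretch of 30 bases in common with Gm10717, 9 of them on chromosome 9, 2 on chromosome 2 and 1 on chromosome 14. Near-identical copies can exchange reads in mapping, so their separate values are uncertain.

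The shared letters are shown for Gm10717 on chromosome 9 and Gm10800 on chromosome 2, to let a reader see how alike models on different chromosomes are. Capitals mark the 59 bases that are identical in both, and lower case the 20 bases on either side, all from the GENCODE M21 transcripts and 5′ to 3′. In GRCm38, Gm10717 lies at chr9:3025417-3033289 on the plus strand, and the printed 59 shared bases with their flanks cover transcript positions 260 to 358 of 684, the capitals 280 to 338. Gm10800 lies at chr2:98666547-98667301 on the minus strand, and the printed bases cover positions 248 to 346 of 660, the capitals 268 to 326.
Gm10717: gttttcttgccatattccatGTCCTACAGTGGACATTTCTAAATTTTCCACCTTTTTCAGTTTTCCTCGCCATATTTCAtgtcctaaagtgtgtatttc
Gm10800: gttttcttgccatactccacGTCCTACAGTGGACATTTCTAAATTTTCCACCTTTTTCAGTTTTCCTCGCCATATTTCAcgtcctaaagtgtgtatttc

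All 6 tested models of that family were lower in tMCAO, with log2 fold changes of -3.88 to -2.50 (median -3.18). Of all tested features, 8.96% were lower. The family was chosen through the likeness of Gm10717 to a falling locus, and its models may share reads. The number of calls therefore gives no support to a link with the loci. Gm10717 itself passed the low-count filter through sham alone. Gm10717 stood at 15.2, 7.53 and 8.03 CPM in sham and at 0.492, 1.08 and 0.533 CPM in tMCAO (log2 fold change -3.88 ± 0.56, adjusted p = 0.000588). Gm10800 stood at 40.9, 28.1 and 21.4 CPM against 2.95, 10.2 and 4.26 CPM (-2.50 ± 0.41, adjusted p = 0.00187). Summed over the 12 models, the level was 370, 199 and 149 CPM in sham and 22.2, 48.5 and 12.2 CPM in tMCAO. Sham 1 was the highest sham library and tMCAO 2 the highest tMCAO library, as in ONT.24623, ONT.24624, ONT.24625 and ONT.24627. Gm10717 was picked for its likeness to ONT.24627 over these same libraries, so this order gives no support to a link either. Sequences of the lncRNA loci themselves were not used here, so whether any of the 6 loci holds such a repeat was not tested.

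**Figure D4:**
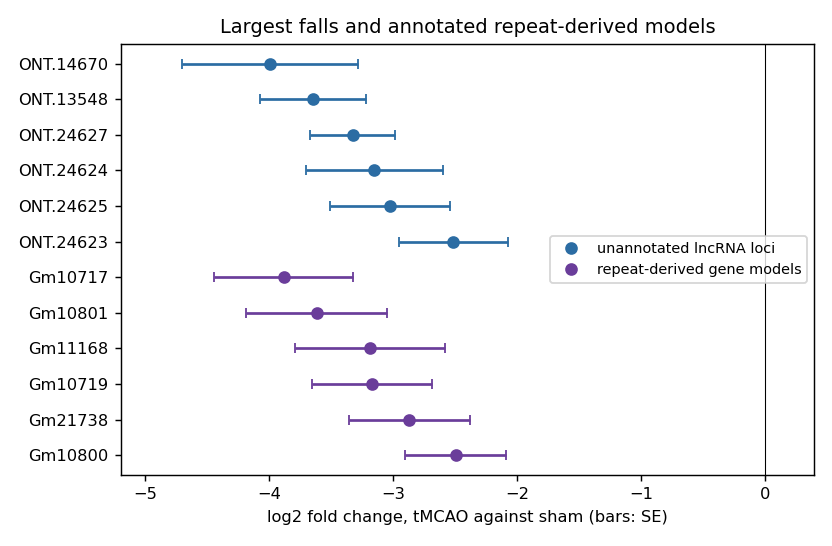
Log2 fold change of tMCAO against sham (x axis, bars give the SE) of the 6 unannotated lncRNA loci with the largest falls and of the 6 tested gene models that share sequence with Gm10717. The loci range from -3.99 to -2.51 and the models from -3.88 to -2.50.

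Of the other large falls, 3 were called in every setting. ONT.23554 stood at 74.6, 75.3 and 63.9 CPM in sham and at 18.2, 18.9 and 12.8 CPM in tMCAO, a mean of 71.3 ± 6.42 against 16.6 ± 3.34 (log2 fold change -2.22 ± 0.21, adjusted p = 2.90e-05). ONT.8654 stood at 119, 83.6 and 95.2 CPM against 32.0, 29.1 and 37.8 CPM (-1.70 ± 0.20, adjusted p = 0.000151). In both, the libraries of a group lay close together. ONT.19422 stood at 38.0, 47.6 and 27.9 CPM against 19.7, 10.2 and 6.39 CPM (-1.76 ± 0.36, adjusted p = 0.00668), with a wider spread in tMCAO. In these loci sham 1 was not set apart from sham 2 and sham 3 as it was in ONT.13548.

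The 3 remaining loci of the 12 largest falls were read less, and their calls depended on single libraries. Of these, ONT.7183 and ONT.26043 were above the filter level in sham alone. ONT.7183 stood at 8.43, 11.9 and 7.27 CPM against 4.43, 2.69 and 2.13 CPM (log2 fold change -1.67 ± 0.42, adjusted p = 0.0150). Its adjusted p was 0.0605 without sham 2 and 0.0612 without tMCAO 2, in a range of 0.00693 to 0.0661 over all settings. ONT.23261 stood at 15.6, 10.3 and 9.18 CPM against 4.43, 5.39 and 3.73 CPM (-1.48 ± 0.36, adjusted p = 0.0136). Without sham 1 its adjusted p was 0.0774, in a range of 0.00823 to 0.106. ONT.26043 stood at 10.5, 6.74 and 8.41 CPM against 3.45, 2.16 and 4.26 CPM (-1.47 ± 0.40, adjusted p = 0.0232). That call was lost without sham 1 (adjusted p = 0.105), sham 3 (0.0597), tMCAO 1 (0.0600) or tMCAO 2 (0.0956), in a range of 0.0183 to 0.105.

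Of all 30 lower calls, 23 had a log2 fold change of -1 or less, and their median was -1.31. The 18 loci outside the 12 largest include ONT.8875, described with the abundant loci, and 17 with log2 fold changes of -1.43 to -0.66, adjusted p of 0.00115 to 0.0496 and mean levels of 4.26 to 81.8 CPM. Sham 1 was the highest sham library in 18 of the 30 and sham 2 in 3, and sham 2 was the lowest in 21. Astrocyte, erythroid and, by a small margin, neutrophil marker sums were lower in every tMCAO library than in every sham library. Choroid plexus and oligodendrocyte sums overlapped. The astrocyte, erythroid, choroid plexus and oligodendrocyte lists had their highest sum in sham 2 (409, 6040, 44619 and 1029 CPM, in that order). The neutrophil list had its highest sum in sham 3 (2170 CPM). The part of these cells in the falls was not tested.

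Rises were fewer and began from low levels in all but a pair of loci. ONT.17214 stood at 5.06, 3.57 and 5.35 CPM in sham and at 44.3, 26.9 and 48.5 CPM in tMCAO, a mean of 4.66 ± 0.958 against 39.9 ± 11.4 (log2 fold change 2.98 ± 0.32, adjusted p = 7.45e-05). The lowest tMCAO library lay well above the highest sham library. Its call held in all 16 other settings, with log2 fold changes of 2.79 to 3.23.

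ONT.11370 stood at 3.37, 1.98 and 3.06 CPM against 10.3, 24.3 and 17.0 CPM (log2 fold change 2.48 ± 0.41, adjusted p = 0.00142), and passed the filter through tMCAO alone. ONT.14159 stood at 4.22, 8.32 and 2.68 CPM against 27.6, 22.6 and 19.7 CPM (2.06 ± 0.37, adjusted p = 0.00251). Calls of both held in all other settings. In ONT.11370 the tMCAO libraries spread more than the sham libraries, while in ONT.14159 sham 2 lay above the other sham libraries. ONT.22391 and ONT.24242 were the abundant loci among the rises. ONT.24242 stood at 73.4, 59.5 and 96.0 CPM against 165, 189 and 119 CPM (0.93 ± 0.20, adjusted p = 0.00685). ONT.22391 stood at 82.2, 61.0 and 103 CPM against 142, 183 and 161 CPM (0.87 ± 0.19, adjusted p = 0.00818).

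The other 3 rises were less firm. ONT.16356 stood at 4.64, 5.95 and 2.29 CPM against 10.8, 19.9 and 21.8 CPM (log2 fold change 1.90 ± 0.41, adjusted p = 0.00732). ONT.10207 stood at 14.3, 7.93 and 16.8 CPM against 23.6, 54.4 and 41.0 CPM (1.49 ± 0.34, adjusted p = 0.0118). In both the groups did not overlap, and each call was lost only with sham 1 and tMCAO 3 left out together (adjusted p = 0.0581 and 0.0764). ONT.4604 stood at 4.64, 5.15 and 8.41 CPM against 15.8, 15.6 and 13.3 CPM (1.16 ± 0.32, adjusted p = 0.0237). Its call was lost in 7 of 16 settings, among them those without sham 1 (adjusted p = 0.111), sham 2 (0.0655), tMCAO 1 (0.0551) or tMCAO 2 (0.0651), in a range of 0.00882 to 0.111.

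**Figure D5:**
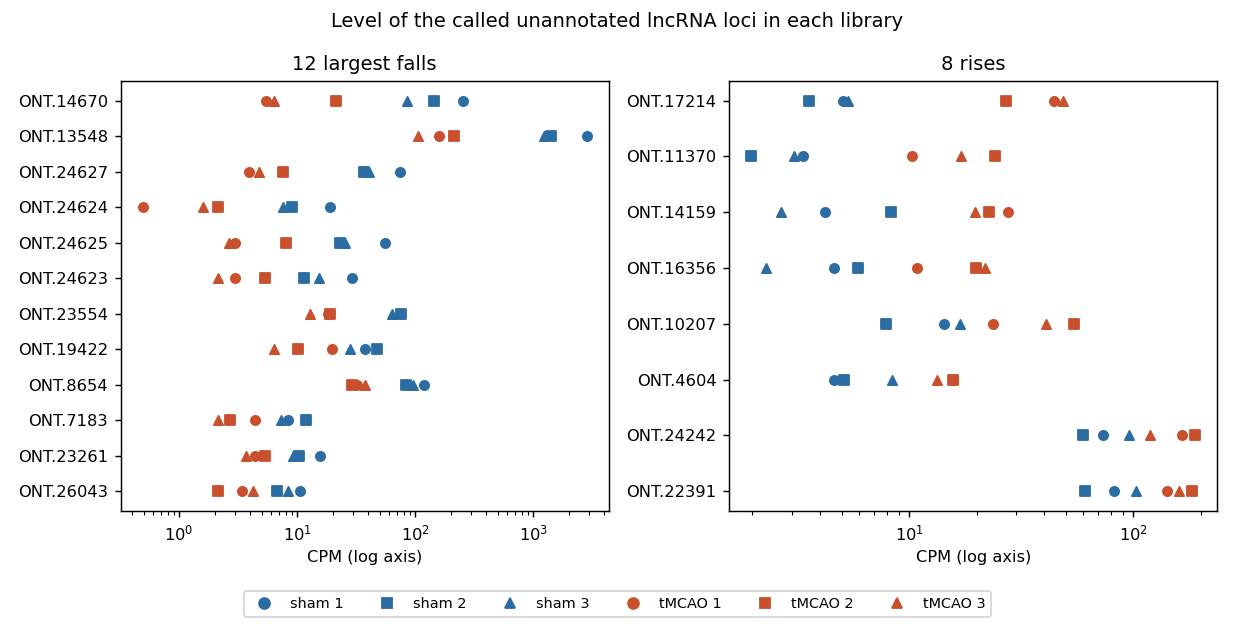
CPM of the 12 largest falls (left) and the 8 rises (right) in each library, on log axes, with blue for sham, red for tMCAO and 1 marker shape per replicate number. In every locus shown the blue and red points do not overlap, and ONT.13548 lies farthest to the right, at 105 to 2833 CPM.

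Of the 8 most abundant loci, 5 besides ONT.12600 were not called rises or large falls. ONT.18752 stood at 616, 621 and 693 CPM in sham and at 905, 625 and 537 CPM in tMCAO, so tMCAO 1 and tMCAO 3 lay on opposite sides of the sham libraries (log2 fold change -0.03 ± 0.17, adjusted p = 0.934). ONT.3484 stood at 281, 216 and 325 CPM against 270, 231 and 271 CPM (-0.20 ± 0.17, adjusted p = 0.446). Neither of these well-read loci was called. ONT.8875 was called lower, at 194, 146 and 215 CPM against 124, 130 and 124 CPM (-0.67 ± 0.17, adjusted p = 0.0144). That call was lost without sham 1 (adjusted p = 0.0653), sham 3 (0.0680) or tMCAO 1 (0.0565), in a range of 0.00868 to 0.0680. ONT.20428 had a log2 fold change of -0.40 ± 0.16 (adjusted p = 0.107) and ONT.21795 one of -0.35 ± 0.22 (adjusted p = 0.287), both with overlapping groups.

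Differences nearest to 0 at or above the median level of the tested loci were those of ONT.20699 (log2 fold change 0.01 ± 0.21), ONT.3140 (-0.02 ± 0.28) and ONT.14775 (0.07 ± 0.31), beside ONT.18752 and ONT.12600. Among all 107 tested loci without a call, log2 fold changes ran from -2.47 to 1.18, 69 were below 0, and 57 were within 0.5 of 0. At an unadjusted p under 0.05 the class had 56 lower (38.6%) and 14 higher (9.66%) loci, against 16.6% and 15.8% of all tested features. The uncalled locus with the lowest value, ONT.17477, was named after its values were seen. It stood at 59.5, 142 and 10.7 CPM in sham and at 14.8, 20.5 and 7.46 CPM in tMCAO. Its sham libraries spread over a wide range with sham 2 highest, and the groups overlapped (-2.47 ± 1.10, adjusted p = 0.213).

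Only 5 loci had counts in 1 group alone, and none was tested. ONT.7405 had no count in sham and 3, 7 and 5 counts in tMCAO, 6.51-fold higher with 3 counts over the sham group as the floor. Such ratios take the counts of the other group as exact, so they are not lower bounds. ONT.6675 had 1, 1 and 8 tMCAO counts, 4.34-fold higher by that floor, with most of them in tMCAO 3. ONT.15844 had 1, 3 and 1 tMCAO counts (2.17-fold higher by that floor). In the other direction, ONT.16052 had 3, 1 and 0 counts in sham and none in tMCAO (1.02-fold lower with the floor in tMCAO), and ONT.20906 had 1 count in sham 1, under the floor. None of the 5 had more than 15 counts in all.

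The locus numbers run along the genome, which places many of the loci roughly. The 199 known lncRNA lines of the table carry numbers of the same series, and 139 of them have an Ensembl ID found in GENCODE M21. In number order these 139 formed 20 runs for 20 chromosomes, and in 100 of 100 neighbouring pairs on 1 chromosome and strand the start position rose. All 19 changes of strand within a chromosome went from plus to minus. Read against these lines, 148 of the unannotated loci have numbers between those of known lncRNA genes of 1 chromosome. For 99 of them both genes are also on 1 strand. For the rest of the 148 the order gives the chromosome only. This is an order and not a position from the file, and it names no gene for any locus.

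By that order ONT.13548 lies on chromosome 2 between 2810002D19Rik and 1700020I14Rik, and ONT.14670 on the minus strand of chromosome 2 between Gm13710 and Gm14005. ONT.24623 to ONT.24627 are placed on chromosome 9, with numbers between those of 2310009A05Rik and Plet1os. ONT.12600 is placed on chromosome 19, numbered between 2700046G09Rik and AW112010, and ONT.17214 on chromosome 4, numbered between 4930455G09Rik and Bach2os. In each of these cases the flanking genes are on opposite strands, so the order gives the chromosome but not a place between them. Placed loci numbered 1 to 18 per chromosome, with the most on chromosome 11.

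Annotated lncRNA genes gave a point of comparison. Of 56 listed symbols, 18 matched a line used here and 14 were tested, of which 3 were higher, 1 lower and 10 not called (median log2 fold change 0.20), where 9.17% of all tested features were higher and 8.96% lower. This list leans the other way from the 113 tested known lncRNA genes as a class (median -0.11). The higher ones were Mir22hg, a microRNA host gene, and the snoRNA host genes Zfas1 and Snhg15. Mir22hg passed the low-count filter through tMCAO alone, so its call gives no support to the count of higher genes. Mir22hg went from 2.65 ± 0.488 to 7.84 ± 1.18 CPM (log2 fold change 1.42 ± 0.39, adjusted p = 0.0243), Zfas1 from 99.2 ± 7.35 to 180 ± 61.7 CPM (0.73 ± 0.21, adjusted p = 0.0278) and Snhg15 from 11.6 ± 3.06 to 26.7 ± 10.4 CPM (1.06 ± 0.31, adjusted p = 0.0294). Snhg8, also a snoRNA host gene, fell from 210 ± 19.9 to 154 ± 10.7 CPM (-0.56 ± 0.15, adjusted p = 0.0216). Gas5, a snoRNA host gene linked to growth arrest, had 475 ± 48.2 CPM in sham and 497 ± 42.3 CPM in tMCAO (-0.05 ± 0.14, adjusted p = 0.849). Listed genes with every tMCAO library below every sham library, but no call, were Trp53cor1 (-0.66 ± 0.32, adjusted p = 0.176) and the untested Pantr1 (5.89 ± 2.83 against 0.701 ± 0.327 CPM) and Jpx (12 counts in sham, none in tMCAO). None of the 14 tested genes of the list changed by as much as ONT.13548 or ONT.17214 (all values SD, n = 3, for levels and SE for log2 fold changes). Both loci are among the largest changes of 145 tested loci, so this is not a comparison of like with like. The untested Pantr1 and Jpx, which fell from low levels, have no log2 fold change to set beside them.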

How the data were processed

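Per the file headers, the authors deposited raw read counts per gene or locus and library, with CPM columns scaled by library totals; deposited CPM differed from values computed here by at most 4.87e-06. Libraries were made from total RNA with a PCR-based nanopore cDNA kit, per the labels' protocols, and the submitters' processing notes name minimap2. Not given in the sources used here are the genome build, annotation, counting rule, use of strand and criteria for classing a locus as lncRNA; overlapping and antisense genes therefore cannot be told apart. The class examined has 229 loci. Of 38219 lines, 12 held spilled annotation text and were left out.

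Counts were tested with edgeR 4.0.16 (R 4.3.3): filterByExpr (minimum count 10, minimum total 15), TMM scaling, robust glmQLFit and glmQLFTest with group as the only term, and Benjamini-Hochberg adjustment over the 13127 features tested. A call is an adjusted p under 0.05. The SE is the absolute log2 fold change divided by the square root of F. Alternatives were other scalings and filters, limma voom 3.58.1, DESeq2 1.42.0, a replicate block and left-out libraries. The code was tested on simulated data.

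The members, lists, tests and the left-out pair of libraries were chosen with earlier results of these data known. Named loci are the 12 largest falls and the rises among called loci (8 exist), the 8 highest by mean CPM, those counted in 1 group only (up to 5), and the 5 tested loci nearest to 0 at or above the median level. No label tells which pools were processed side by side; p-values reflect only how far the pools spread. PCR reads carry no molecular identifiers, and the count floors cover only the counting error of the group without counts.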

Additional observations from a re-analysis of the deposited data

How the results depend on the processing

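Of the 21 named loci that were called, 13 kept their call in all 16 alternatives, no call changed direction, and none of the 8 named uncalled loci gained a call. Leaving out 1 library at a time gave 7 to 9 higher and 17 to 33 lower unannotated lncRNA loci (8 and 30 with all libraries; 17 lower without sham 1), and 1254 to 2590 calls over all features (2380 with all libraries), 1254 without sham 1 and 1558 without sham 3. Without both sham 1 and tMCAO 3 there were 5 higher and 18 lower loci and 1573 calls in all. With no low-count filter there were 17 higher and 34 lower loci and 4039 calls in all. DESeq2 called 7 higher and 22 lower loci, and limma voom 9 and 29. With library totals as the only scaling the loci split into 11 higher and 23 lower (32.4% higher against 21.1%), while 63.2% of all calls were higher against 50.6%, the median of all features was 0.11 and that of the loci -0.33. Leaving out the most abundant locus, chosen after seeing the data, gave 8 higher and 31 lower.

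Same-numbered libraries did not deviate together (correlations of -0.20, 0.02 and -0.17, and 0 of 6 libraries correlated best with its own number). With so few libraries, centred within each group, these values cannot show whether same-numbered pools were processed together. With the replicate block 7 loci were higher, 25 lower and 1662 features called in all, and among named loci 1 call was lost, ONT.4604 (adjusted p = 0.0503). Depth limits the class: 84 of the loci were too low to test.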
